A study of Caenorhabditis elegans with 4 samples.

Results

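LIN-15B peaks in L4 larvae of Caenorhabditis elegans were read at the promoters of the genes that encode the proteasome. The genes were taken by name: every protein-coding gene of the Ensembl annotation of WBcel235 called pas-, pbs-, rpn- or rpt-, which gave 33 of 19985 protein-coding genes. Of these, 14 encode the core particle (7 pas genes of the alpha ring and 7 pbs genes of the beta ring) and 19 the regulatory particle (6 rpt ATPases and 13 rpn subunits). No peak value entered this naming rule, but the set was picked with earlier results of these data known. Chromatin immunoprecipitation with sequencing was done on whole larvae of strain OP184, of both sexes together, which carries unc-119(tm4063) III and the transgene wgIs184. That transgene makes LIN-15B with a GFP-FLAG tag at its C terminus, per a note on replicate 3. There was 1 group and no other genotype, stage or treatment, so no condition was compared. The 4 samples are 3 biological replicates, of which replicate 3 has 2 technical libraries with 1 peak list between them, counted once. Whether the replicates were grown apart is not stated, so the spread between them may be technical. The labels name a strain centre as the source of replicates 1 and 2 and the laboratory itself as that of replicate 3, which cannot be told apart from replicate differences with 1 replicate of that kind.

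The proteasome is the protease complex that breaks down proteins marked with ubiquitin. Its core particle is a barrel of stacked rings: outer alpha rings that gate the entrance and inner beta rings, some of whose subunits hold the proteolytic sites. The regulatory particle caps the barrel. Its base has a ring of ATPases that unfold substrates, with scaffold subunits and ubiquitin receptors, and its lid removes ubiquitin. The subunits work in one assembly, yet in worms their genes lie apart on the chromosomes. LIN-15B is a nuclear protein of the synMuv B class, with a THAP domain, known for keeping germline genes silent in somatic cells.

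Peaks at proteasome promoters were common and mostly of middling strength. A gene was counted when the summit of a peak lay from 500 bp upstream to 100 bp downstream of one of its transcript starts. In the pooled list, called on the alignments of all 3 replicates together, 16 of the 33 genes had such a peak (48.5%), against 12.5% of all protein-coding genes. In the optimal list, which holds the 383 highest-scoring of the 8636 pooled peaks, 3 of 33 did (9.09%), against 1.98% of all genes. Those 3 were rpn-3, a lid subunit, rpt-2, an ATPase, and pas-4, an alpha subunit. Among all genes with a pooled promoter peak, the 16 sat at a median score percentile of 53.8, and their median rank in the list was 2058.5. The score is the authors' signal value of a peak against the control, of unstated scale, and it serves here to rank peaks within a list. Each of the 16 genes had a peak of its own: 16 distinct peaks, none of which served a pair of proteasome genes.

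The DNA under 5 of these peaks is shown because the genes differ in strength and in the sequence classes described further on. The highest scores among proteasome genes are those of rpn-3 and rpt-2, and rpn-9 has the highest without an optimal peak. A regulatory and a core gene of lower score are rpt-4 and pbs-1. Their pooled ranks run from 106 to 3146, and the weakest proteasome peaks, down to rank 6919, are not shown. Each stretch reaches up to 100 bp to either side of the summit of the pooled peak, without annotated UTR bases, on the strand of the named gene, 5′ to 3′, from the RefSeq genome of WBcel235, which is the ce11 build of the files. Capitals mark matches, on either strand, to the core of the SKN-1 motif (TGTCAT or TATCAT) or to the cell cycle homology region (TTTGAA or TTCGAA). The rpn-3 sequence is chrIII:8447068-8447268 on the plus strand, and the others are on the minus strand: rpt-2 at chrV:6017712-6017912, rpn-9 at chrII:11239089-11239289, rpt-4 at chrII:43707-43906 and pbs-1 at chrIV:1709844-1710044.
rpn-3: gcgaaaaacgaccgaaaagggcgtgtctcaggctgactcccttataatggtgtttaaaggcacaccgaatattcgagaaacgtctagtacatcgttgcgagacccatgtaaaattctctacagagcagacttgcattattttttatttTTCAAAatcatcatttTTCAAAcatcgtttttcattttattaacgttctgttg
rpt-2: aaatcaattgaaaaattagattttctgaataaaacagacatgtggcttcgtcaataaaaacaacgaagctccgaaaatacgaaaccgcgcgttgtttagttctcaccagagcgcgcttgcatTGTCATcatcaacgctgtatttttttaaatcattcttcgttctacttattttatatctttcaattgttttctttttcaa
rpn-9: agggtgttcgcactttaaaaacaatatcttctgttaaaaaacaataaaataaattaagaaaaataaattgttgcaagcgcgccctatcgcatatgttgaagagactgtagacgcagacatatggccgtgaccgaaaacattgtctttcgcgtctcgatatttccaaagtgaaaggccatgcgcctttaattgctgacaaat
rpt-4: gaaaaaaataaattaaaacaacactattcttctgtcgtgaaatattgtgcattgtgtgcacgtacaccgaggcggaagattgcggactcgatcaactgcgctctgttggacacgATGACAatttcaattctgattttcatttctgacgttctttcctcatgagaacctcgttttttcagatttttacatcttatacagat
pbs-1: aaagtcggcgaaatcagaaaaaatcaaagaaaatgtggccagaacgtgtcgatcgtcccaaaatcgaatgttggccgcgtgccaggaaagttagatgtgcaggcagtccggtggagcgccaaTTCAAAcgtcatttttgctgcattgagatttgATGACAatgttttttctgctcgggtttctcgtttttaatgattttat

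In these 5 windows the capitals of rpn-3 are a pair of cell cycle homology matches, and those of rpt-2 and rpt-4 are 1 SKN-1 core match each. The pbs-1 window holds 1 match of each kind, and the rpn-9 window holds neither. SKN-1 is the worm transcription factor known to raise proteasome genes when the proteasome is impaired.

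The replicate lists hold 30000 peaks each, down to low scores, and the share of proteasome genes with a promoter peak was above that of all genes in each replicate. A promoter peak was listed for 16 of the 33 genes in replicate 1 (48.5%, all genes 26.2%), for 20 in replicate 2 (60.6%, all genes 26.9%) and for 22 in replicate 3 (66.7%, all genes 26.7%). The mean over replicates was 58.6% ± 9.26 (SD, n = 3) for proteasome genes and 26.6% ± 0.357 for all genes. Within the first 383 peaks of a replicate list, here called top-ranked, the counts were 6 genes in replicate 1 (18.2%, all genes 1.69%), 4 in replicate 2 (12.1%, all genes 1.73%) and 2 in replicate 3 (6.06%, all genes 1.69%). The mean share was 12.1% ± 6.06 (SD, n = 3) for proteasome genes and 1.70% ± 0.0247 for all genes. Only rpn-3 and rpt-2 were top-ranked in all 3 replicates. The other top-ranked genes were pas-4, pbs-2, pbs-7 and rpt-6 in replicate 1, and rpn-9 and rpn-11 in replicate 2, each in that replicate alone.

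Counted by gene, 11 of the 33 had a promoter peak in all 3 replicate lists, 7 in 2 lists, 11 in 1 list and 4 in none. Of all genes, 6.87% had one in all 3 lists, 14% in 2, 31.1% in 1 and 48% in none. The count in 1 list was thus near the share of all genes. The 4 genes with none were pas-1, pbs-6, rpn-7 and rpt-3. At the 16 pooled summits, a peak of all 3 replicates covered the summit for 6 genes, of 2 replicates for 8 genes, and of 1 replicate for rpn-1 and rpn-2. For all genes with a pooled promoter peak, 36.5% had the summit covered in all 3 replicates and 20.3% in 1.

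**Figure D1:**
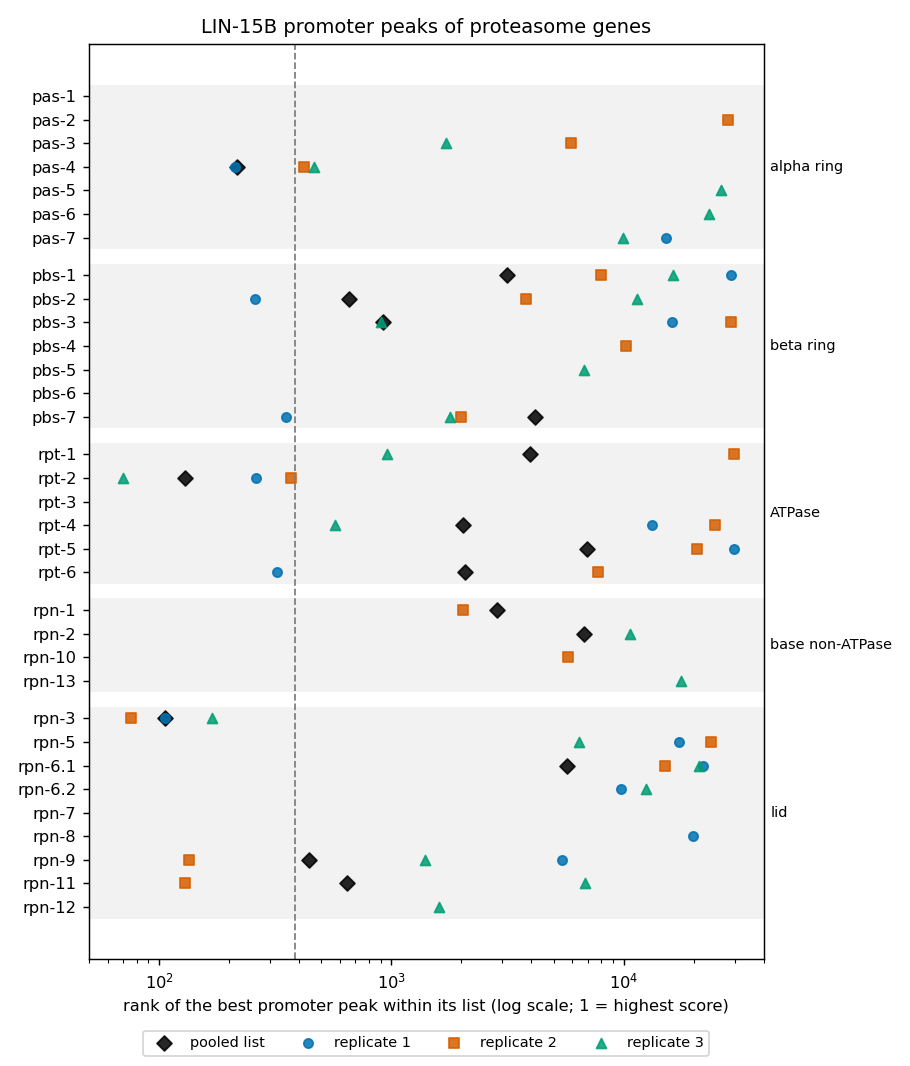
Rank of the best promoter peak of each of the 33 proteasome genes (rows, by role) in the pooled list and in the 3 replicate lists, on a log axis, with the dashed line at rank 383; genes without a symbol in a list had no promoter peak there. The points of rpn-3 and rpt-2 lie left of the line in all 4 lists, while most other genes with a peak scatter widely over the replicate lists.

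The alpha ring of the core particle had 1 pooled promoter peak among 7 genes (14.3%, all genes 12.5%), at pas-4 (WBGene00003925). This peak, at chromosome I 8728454 to 8728793 (ce11), scored 40.0 at rank 217, and its summit lay 137 bp upstream of the pas-4 start, inside the non-coding RNA gene C36B1.16. In the replicate lists pas-4 scored 12.8 at rank 212, 12.8 at rank 420 and 11.8 at rank 465. The 3 replicates thus placed it close to the edge of the top-ranked peaks, inside it in replicate 1 and outside it in replicates 2 and 3. Their summits lay within 13 bp of each other. The same peak lay 140 bp upstream of rpb-3, which encodes a subunit of RNA polymerase II and is transcribed away from pas-4. The other alpha genes had none in the pooled list, although pas-3 was listed in replicates 2 and 3 with scores of 7.16 and 7.56, and pas-7 in replicates 1 and 3 with scores of 3.69 and 4.22. The genes pas-2, pas-5 and pas-6 appeared in 1 replicate list each.

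The beta ring had 4 pooled promoter peaks among 7 genes (57.1%) and none in the optimal list. The gene pbs-2, for the subunit with trypsin-like activity, had the highest score of them, 22.7 at rank 660, with the summit 347 bp upstream of its start and 319 bp upstream of eif-6, a translation factor gene on the other strand. Its replicate scores were 11.9 at rank 260, 7.98 at rank 3812 and 3.99 at rank 11376, so that replicate 1 stood well above the others. For pbs-3, a structural beta subunit, the score was 20.1 at rank 924, and the replicate ranks were 16122, 29022 and 904, high in replicate 3 alone. In the pooled list pbs-3 was the only proteasome gene whose summit lay downstream of the start, by 59 bp, in a coding exon of pbs-3.

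The remaining beta peaks were weaker in the pooled list. The gene pbs-1, for the subunit with caspase-like activity, scored 14.6 at rank 3146, with replicate ranks of 28941, 7991 and 16255, of which the last belongs to a peak that did not cover the pooled summit. Its summit lay 199 bp upstream of its start and 321 bp from that of K08D12.3. The gene pbs-7, another structural subunit, scored 13.7 at rank 4141 in the pooled list, yet its best promoter peaks ranked 352, 1997 and 1780 in the replicates, higher than the pooled rank in each. These replicate summits lay up to 299 bp apart, and the replicate 3 peak did not cover the pooled summit, which was 138 bp from the pbs-7 start and 164 bp from that of F39H11.1. No pooled promoter peak was found at pbs-5, the gene of the chymotrypsin-like subunit, or at pbs-4 and pbs-6. The summit nearest to pbs-5 lay 1167 bp upstream, at rank 312 of the pooled list, in the promoter window of the neighbouring gene K05C4.2. That gene lies 110 bp upstream of pbs-5 on the same strand.

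The ATPase ring of the regulatory particle was the role with the largest share in the pooled list: 5 of 6 genes (83.3%). The strongest was rpt-2 (WBGene00004502), with a peak at chromosome V 6017642 to 6017981, a score of 53.6 and rank 129. Its replicate scores were 11.9 at rank 261, 13.3 at rank 368 and 29.8 at rank 70, top-ranked throughout and highest in replicate 3. The replicate summits fell within 36 bp, and the pooled summit lay 143 bp upstream of rpt-2, inside the non-coding RNA gene F29G9.10. It was 158 bp upstream of aps-1, the gene of a clathrin adaptor subunit on the opposite strand. The peak of rpt-4, at chromosome II 43637 to 43976, scored 16.2 at rank 2038, with replicate scores of 3.94, 4.24 and 11.0 at ranks 13236, 24783 and 571. Replicate 3 was thus far above the others. This summit lay 145 bp upstream of an inner start of rpt-4, in an intron of a longer rpt-4 transcript, and 100 bp upstream of nfyc-1, a gene for a subunit of the NF-Y transcription factor.

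Among the other ATPase genes the replicates differed in which of them they listed. For rpt-6 (pooled rank 2079, summit 315 bp upstream) the ranks were 321 in replicate 1 and 7748 in replicate 2, with no promoter peak in replicate 3. For rpt-1 (pooled rank 3939, summit 151 bp upstream) there was none in replicate 1, and the ranks in replicates 2 and 3 were 29847 and 959. The weakest pooled peak of the 16 was that of rpt-5, at rank 6919 with its summit 482 bp upstream. That summit lay 127 bp from the start of rad-8, and the gene rpt-5 was absent from replicate 3. The sixth ATPase gene, rpt-3, had a promoter peak in none of the 4 lists.

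In the base, outside the ATPase ring, the scaffold genes rpn-1 and rpn-2 had pooled promoter peaks and the ubiquitin receptor genes rpn-10 and rpn-13 had none. The rpn-1 summit, at rank 2855, lay 491 bp upstream of its start, 279 bp from that of ribo-1, an oligosaccharyltransferase subunit gene. The rpn-2 summit, at rank 6721, lay 472 bp upstream, 298 bp from the start of C23G10.7. Both summits were near the far edge of the window and were seen in 1 replicate each, at rank 2029 of replicate 2 for rpn-1 and rank 10633 of replicate 3 for rpn-2.

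In the lid, 4 of 9 genes had a pooled promoter peak (44.4%), and they included the strongest proteasome peak. This was at rpn-3 (WBGene00004460), at chromosome III 8446998 to 8447337, with a score of 59.2 and rank 106. Its replicate scores were 17.7 at rank 106, 25.8 at rank 76 and 18.8 at rank 169, top-ranked throughout and highest in replicate 2. The summits of the replicates fell within 63 bp, and the pooled summit lay between genes, 185 bp upstream of rpn-3. It was 259 bp upstream of hsp-110, which encodes a chaperone of the heat shock protein family. The gene rpn-9, at chromosome II 11239019 to 11239358, scored 27.0 at rank 440, below the lowest optimal score of 28.9. Its replicate scores were 5.39 at rank 5434, 19.4 at rank 135 and 8.06 at rank 1401, so that it ranked highest in replicate 2. The summit lay 270 bp upstream of rpn-9 and 408 bp upstream of T06D8.9, and the peak of replicate 1 did not cover it.

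The gene rpn-11, which encodes the deubiquitinating subunit, also ranked highest in replicate 2. Its peak at chromosome II 4044399 to 4044738 scored 22.9 at rank 642, with a score of 20.0 at rank 129 in replicate 2, 4.91 at rank 6825 in replicate 3 and no promoter peak in replicate 1. The summit was 23 bp upstream of the start, the closest of the 15 upstream summits. For rpn-6.1, a lid subunit known in worms for raising proteasome activity, the pooled peak ranked 5702, 265 bp upstream and inside an intron of F57B9.1, and the replicate ranks were 21919, 15115 and 21135. The replicate 3 peak of rpn-6.1 was another one: it did not cover the pooled summit, and the replicate summits lay up to 1308 bp apart. The genes rpn-5, rpn-6.2, rpn-7, rpn-8 and rpn-12 had no pooled promoter peak. Of these, rpn-5 was listed in all 3 replicates with scores of 3.47, 4.35 and 5.03, rpn-6.2 in 2, and rpn-8 and rpn-12 in 1 each.

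Across the 17 genes without a pooled promoter peak, 6 had a pooled summit within 1000 bp of a start. The same share was not computed for all genes, so the count cannot be called high or low. The nearest was that of rpn-12, 102 bp downstream and so just outside the window, in a peak of rank 7906. The others were pas-1 (569 bp downstream), pas-6 (570 bp downstream), rpn-6.2 (590 bp upstream), rpt-3 (907 bp upstream) and pas-5 (993 bp upstream).

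Set side by side, the regulatory particle had the larger share in the pooled list, but the replicate lists did not order the particles alike. In the pooled list 11 of 19 regulatory genes (57.9%) and 5 of 14 core genes (35.7%) had a promoter peak, a difference of 22.2 percentage points. In the replicate lists the regulatory share exceeded the core share by 9.77 points in replicate 1 and 6.02 in replicate 2, and the difference was -8.27 in replicate 3. The mean shares were 59.6% ± 6.08 and 57.1% ± 14.3 (SD, n = 3), and their difference of 2.51 ± 9.52 points was smaller than the spread between replicates (exact sign-flip permutation test over replicates, two-sided, p = 0.75, n = 3, smallest possible p = 0.25). Counting a pooled peak only for the nearest protein-coding start took the pooled difference to 3.01 points, and a window from 250 bp upstream to 50 bp downstream took it to 4.89.

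By score and rank the order of the particles changed between the replicates and with the rule that assigns peaks to genes. Core genes with a pooled promoter peak had a median rank of 924 and a median percentile of 70.5, and regulatory genes a median rank of 2079 and a percentile of 53.4. In replicates 1, 2 and 3 the median percentile of core genes was 67.3, 65.8 and 56.1, and that of regulatory genes 51.8, 66.4 and 73.5. The core was ahead in replicate 1, the regulatory particle in replicate 3, and the mean difference was 0.869 ± 16.5 (exact sign-flip permutation test, two-sided, p = 0.75, n = 3, smallest possible p = 0.25). With the nearest start alone the mean difference was 19.8 ± 10.5, and with the window from 250 bp upstream to 50 bp downstream it was 12.2 ± 6.55; in both, the regulatory particle was ahead in all 3 replicates (exact sign-flip permutation test, p = 0.25 each). A design of 3 replicates cannot pass a threshold of 0.05. In replicates 1, 2 and 3, top-ranked promoter peaks were found for 3, 0 and 0 core genes (21.4%, 0% and 0%). For regulatory genes the counts were 3, 4 and 2 (15.8%, 21.1% and 10.5%), and all genes stood at 1.69%, 1.73% and 1.69%.

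**Figure D2:**
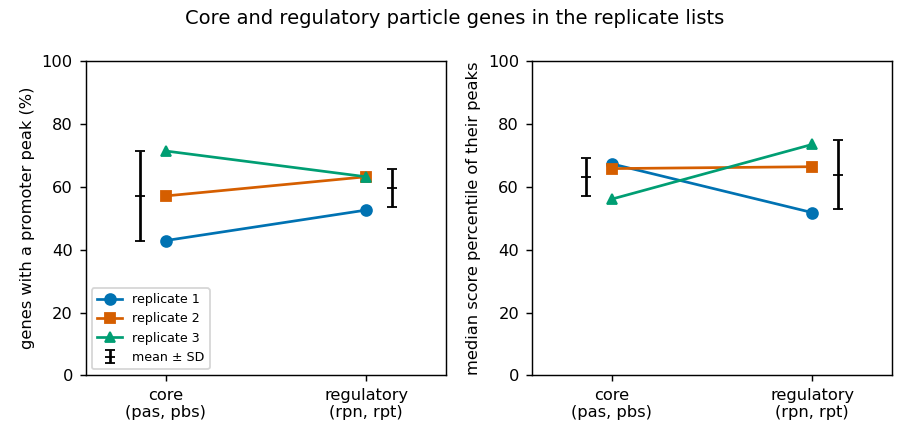
Core and regulatory particle genes compared in each of the 3 replicate lists, as the percent of genes with a promoter peak and as the median score percentile of those peaks; each line joins the particles of 1 replicate, and the bars give the mean ± SD. Replicates 1 and 3 slope in opposite ways in both panels: the shares go from 42.9% (core) to 52.6% (regulatory) in replicate 1 and from 71.4% to 63.2% in replicate 3.

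The roles within the particles varied too. Over the replicate lists the mean share with a promoter peak was 47.6% ± 21.8 for the alpha ring, 66.7% ± 8.25 for the beta ring, 66.7% ± 16.7 for the ATPases, 33.3% ± 28.9 for the rest of the base and 66.7% ± 11.1 for the lid (SD, n = 3). All genes stood at 26.6% ± 0.357, and the alpha ring and the rest of the base lay within their own SD of that share. The alpha ring went from 28.6% in replicate 1 to 71.4% in replicate 3, while its pooled share was 14.3%, near the 12.5% of all genes. The 4 other base genes went from 0% in replicate 1 to 50% in replicates 2 and 3. The ATPases, first in the pooled list, were at 66.7%, 83.3% and 50% in replicates 1, 2 and 3.

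**Figure D3:**
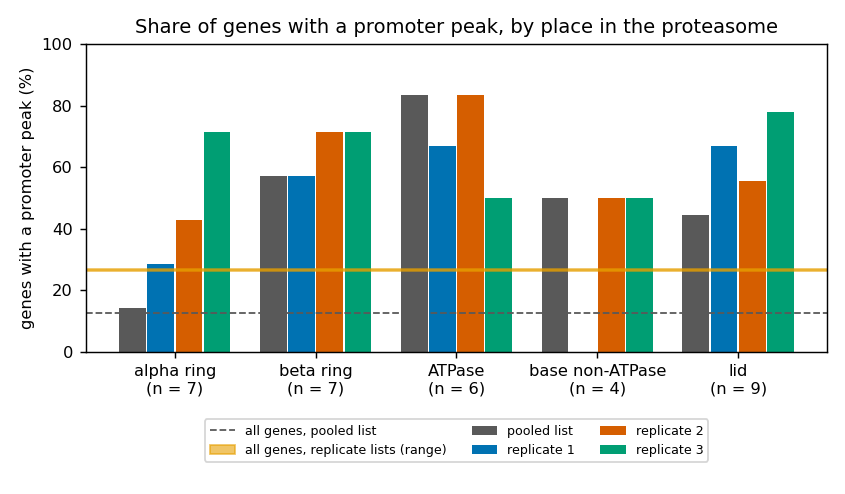
Percent of genes with a promoter peak, by role in the proteasome and for all protein-coding genes, in the pooled list and the 3 replicate lists. The ATPases reach 83.3% and the alpha ring 14.3% in the pooled list, against 12.5% for all genes, and the roles change order between the replicates.

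Most proteasome promoters with a peak were shared with a gene on the other strand. Of the 16 pooled peaks, 12 also lay in the promoter window of another protein-coding gene, in each case on the opposite strand, whereas 765 of 2493 genes with a pooled promoter peak shared theirs (30.7%). The 3 optimal peaks were all shared, compared with 57.5% of genes with an optimal promoter peak. Sharing was seen for 4 of 5 core genes and 8 of 11 regulatory genes. The proteasome start was the closer one to the summit in 6 of the 12 pairs, among them rpn-3, rpt-2 and pas-4. The partner start was closer in the other 6. Margins could be small: the distances were 137 and 140 bp for pas-4 and rpb-3, and 143 and 158 bp for rpt-2 and aps-1. In all 12 pairs the summit alone does not assign the peak to the proteasome gene. The 4 unshared peaks were those of pbs-3, rpn-11, rpt-1 and rpt-6.

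This arrangement is common among proteasome genes whether or not they had a peak. The nearest upstream gene runs the other way (divergent) for 23 of 33 proteasome genes (69.7%), and for 46.2% of all protein-coding genes. Of the 23, 13 had a pooled promoter peak (56.5%), against 15.2% of all genes with a divergent neighbour. Of the 10 with a neighbour on the same strand (tandem), 3 did (30%), against 10.1% of all such genes. The share was thus above that of all genes in both arrangements. By particle, 9 of 13 divergent regulatory genes (69.2%) and 4 of 10 divergent core genes (40%) had one. The median distance to the upstream neighbour was 443 bp for divergent and 171 bp for tandem proteasome genes.

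Summits lay at much the same distance as those of other genes. The pooled summit was upstream of the nearest start of the gene for 15 of 16 proteasome genes (93.8%), and for 88.5% of the 2477 other genes with a pooled promoter peak. The median position was -192 bp relative to the start for proteasome genes and -189 bp for the other genes. It was -138 bp for core and -265 bp for regulatory genes.

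**Figure D4:**
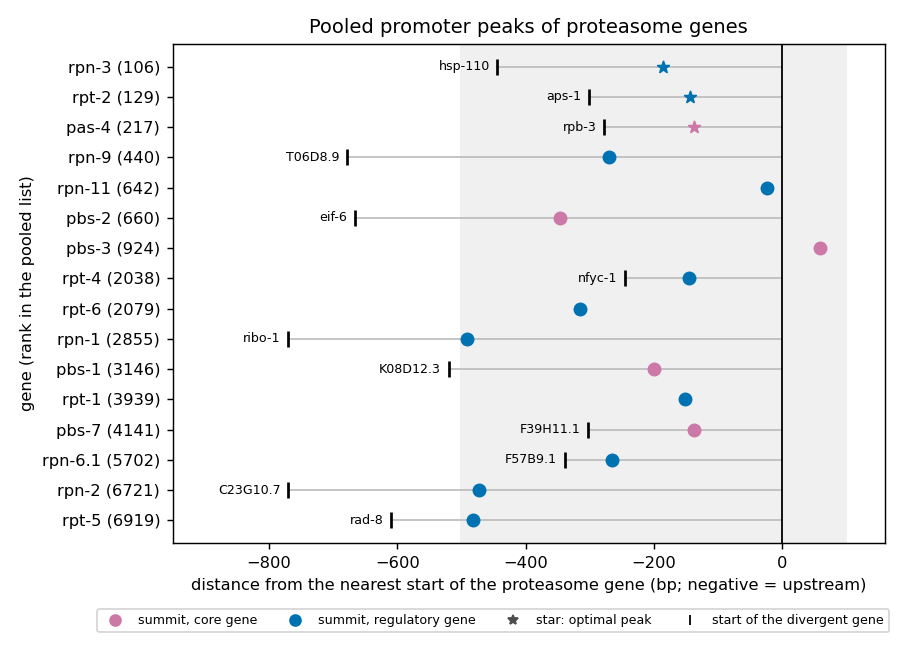
Distance in bp from the start of each proteasome gene (0) to the summit of its pooled promoter peak and to the start of the divergent gene sharing that peak, for the 16 genes with one; the shaded band is the promoter window and stars are optimal peaks. All summits except that of pbs-3 (59 bp downstream) lie upstream, from 23 bp at rpn-11 to 491 bp at rpn-1.

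The sequence under the peaks was poorer in G and C than that of other promoter peaks by the median, as a description with no test. The SKN-1 core letters were in 7 of 11 windows at regulatory genes (63.6%) and 1 of 5 at core genes (20%). All pooled promoter peaks stood at 18.2%, and so few windows do not order the particles. Windows of 201 bp round the summits of the 16 proteasome peaks had a median G+C content of 34.3%, and all 2211 pooled promoter peaks one of 36.8% (quartiles 32.3 and 41.8). The 276 optimal promoter peaks had a median of 41.3% (quartiles 37.3 and 45.3), above rpt-2 at 32.8% and pas-4 at 33.3%, and rpn-3 stood at the lower quartile with 37.3%. The SKN-1 core letters (TGTCAT or TATCAT, both strands) were in 8 of the 16 windows (50%), in 18.2% of all pooled and in 13.4% of all optimal promoter peaks. The carriers were 7 of 11 regulatory genes (rpn-1, rpn-2, rpn-6.1, rpn-11, rpt-2, rpt-4 and rpt-5) and 1 of 5 core genes, pbs-1. At rpn-1, rpn-2, rpn-6.1, rpt-4 and rpt-5 the summit lay nearer the start of the gene sharing the peak. The letters there cannot be assigned to the proteasome gene. The matches lay from 90 bp upstream to 72 bp downstream of the summit, at 18 bp downstream for rpt-4 and 25 bp for rpt-2 in the sequences printed above. These letters are short and say nothing of whether SKN-1 binds there.

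In the summit windows the other motifs were found at about the share seen at other promoter peaks, or not at all. The cell cycle homology letters (TTTGAA or TTCGAA), a binding motif of the DREAM complex to which synMuv B genes are linked, were in 8 of 16 windows (50%), in 52.3% of pooled and 59.4% of optimal promoter peaks. The E2F forms TTTCGCGC, TTTGGCGC and TTTCCCGC were in none of the 16, and in 4.48% and 8.33%. The run GAGAGAGA was in none of the 16, and in 3.03% and 3.26%. At those frequencies, 16 windows are too few to tell a lower share from the same one.

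Genes that work with the proteasome were read from a list of 21 ubiquitin, shuttle, deubiquitinase and CDC-48 pathway genes. Of them 11 had a pooled promoter peak (52.4%) and 2 an optimal one (9.52%), shares near those of the subunit genes. The strongest was cdc-48.1, which encodes the AAA ATPase that extracts ubiquitin-marked proteins, with a score of 385.4 at rank 2 and a summit 178 bp upstream. It outscored every subunit gene and was top-ranked in all 3 replicates. The other optimal peak was that of ufd-3, a CDC-48 cofactor gene, with a score of 29.8 at rank 363. Lower pooled ranks were found at ubql-1, a shuttle factor gene (394), aip-1 (618), the ubiquitin genes ubq-2 (691) and ubq-1 (4715), ufd-2 (1093), the deubiquitinase genes ubh-4 (1103) and usp-14 (6459), skn-1 itself (6069) and the shuttle factor gene rad-23 (7906). The rad-23 peak is the one that lies 102 bp downstream of the rpn-12 start. No pooled promoter peak was found at dss-1, psme-3, psmd-9, ddi-1, png-1, uba-1, cdc-48.2, ufd-1, npl-4.1 or npl-4.2. Peaks were shared with another protein-coding gene for 4 of these 11 genes.

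Beside other large complexes, the proteasome genes had pooled and optimal shares close to those of the vha genes, and an optimal share below those of the cct and ribosomal protein genes, as a description with no test. The shares with a pooled promoter peak were 45% for the 20 vha genes of the vacuolar ATPase, 50% for the 8 cct genes of the chaperonin and 75.6% for the 78 cytosolic ribosomal protein genes. The optimal shares were 10%, 37.5% and 44.9% in the same order. The mean top-ranked shares over the replicates were 6.67% ± 2.89, 33.3% ± 7.22 and 34.6% ± 3.39 (SD, n = 3), against 12.1% ± 6.06 for the proteasome genes. The median score percentile of those pooled peaks was 70, 91.9 and 86.9, above the 53.8 of the proteasome genes.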

How the data were processed

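The deposited narrowPeak lists on ce11 were used: an optimal list, a list called on the pooled replicates, and 1 list for each of 3 biological replicates, each called against a control alignment, per the deposited file descriptions. Column 7, the score of each peak as the authors deposited it, was used to rank peaks within a list. No source used here gives the aligner, the peak caller, their versions or the cutoff of the reproducibility test. Sequencing depth is unknown from these lists, so no interval from read counts could be given. Lists on ce10 were not used here.

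Summits (column 2 plus column 10 plus 1) were laid on transcript starts of Ensembl release 115 (WBcel235) with Python 3.11.15, numpy 2.4.6, pandas 2.3.3 and matplotlib 3.10.9. The best-scoring promoter peak stood for a gene. Its percentile was taken among all protein-coding genes with a promoter peak in that list. Replicates carry equal weight. Operons, in which neighbouring genes on the same strand share a promoter, were not considered. Each gene was thus given a promoter window of its own, also close behind a neighbour on the same strand. Windows of 100 bp to either side of the summit were searched for motifs in the RefSeq genome. The assignment of peaks to genes was tested on simulated data.

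The members and lists were chosen with earlier results of these data known. Genes described in full were those with an optimal promoter peak and the 5 core and 5 regulatory genes with the highest pooled score. The alternatives tried were a narrow and a wide window, the gene start alone, the nearest start alone, overlap of the peak interval, the upper 50% of each list or its top 1000 peaks, and leaving out each replicate. Genes are not replicates, so no test was made over genes.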

Additional observations from a re-analysis of the deposited data

How the results depend on the processing

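The 3 optimal promoter peaks were found under every window and assignment rule. In the upper 50% of the list, 2 were left (rpn-3 and rpt-2). The same 2 were left when only optimal peaks top-ranked in both other replicates were kept, whichever replicate was left out. Of all genes, 1.02%, 0.986% and 0.981% were left without replicates 1, 2 and 3. Which proteasome genes were left follows from the replicate ranks given above. The optimal list was also made from all 3 replicates, so this is no separate support. The pooled count of 16 fell to 8 with the narrow window and to 10 with the nearest start alone, and stayed between 13 and 20 otherwise. The pooled difference between regulatory and core share, 22.2 points, became 4.89 with the narrow window, 3.01 with the nearest start alone, 6.39 in the upper 50% of the list and 32.7 with overlap of 1 bp. The replicate share difference changed sign with the gene start alone (-8.02 points) and ranged from -1.13 (without replicate 1) to 7.89 when 1 replicate was left out. The percentile difference changed sign with the wide window (-5.14), rose to 12.2 with the narrow window and 19.8 with the nearest start alone, and ranged from -7.41 (without replicate 3) to 9.05 when 1 replicate was left out. The mean of 4 top-ranked genes per replicate became 2 with the nearest start alone, 2.67 with the narrow window and 5.67 among the top 1000 peaks, and ranged from 3 to 5 when 1 replicate was left out. Apart from the leave-out shares of the optimal list, the share of all genes was not computed under the other windows, assignment rules and list cuts. The pooled and top-ranked counts under them therefore cannot be set against all genes. The causes were not tested. A peak shared by 2 genes cannot be assigned to either from these lists, which hold no reads, and the transgene copy cannot be told apart from the native gene at lin-15B.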

Other observations

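A search added after seeing the data looked for the same letters in the 300 bases upstream of the outermost start of every nuclear protein-coding gene, whether or not it had a peak. The SKN-1 core letters were there for 13 of the 33 proteasome genes (39.4%), 31.2% of all genes and 25.8% of genes with a pooled promoter peak. They were at 7 of the 16 proteasome genes with a pooled promoter peak (43.8%) and at 6 of the 17 without one (35.3%). By particle, the counts were 5 of 14 core genes (35.7%) and 8 of 19 regulatory genes (42.1%). The gap to other genes was smaller in these fixed stretches than in the windows centred on summits, and it was not tested. The cell cycle homology letters were at 28 of 33 proteasome genes (84.8%) and at 70.6% of all genes. The E2F forms were at 3 of 33 (9.09%) and at 3.78% of all genes, and the run GAGAGAGA at 0 of 33 and at 3.69%. None of these differences was tested.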
